A study of Homo sapiens with 4 samples.

Results

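Pericentromeric DNA, here the sequence within 5 Mb of the place on a chromosome where sequencing reads stop, was examined for CpG methylation in 4 bisulfite sequencing libraries of the established embryonic stem cell line H9. A cytosine was a member if it lay on an autosome, had at least 10 reads in all 4 libraries, and lay within 5 Mb of either edge of the widest gap between neighbouring listed positions of its chromosome. On chromosomes 13, 14, 15, 21 and 22, whose centromeres lie near one end, the first 5 Mb from the first listed position were taken instead. This gave 37721 of 396398 autosomal cytosines (9.52%), 30156 on 17 chromosomes by the gap and 7565 on the other 5 by the first position. They were set against the other 358677 autosomal cytosines. The position rule used no level, but a cytosine with no methylated read in any 1 library is not listed there and so could not be a member. Of the cytosines with at least 10 reads in some library, 27.7% near the gap and 29.9% elsewhere were unlisted in some library.

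The 4 groups held 1 library each. They were primed wild-type (WT) cells and primed B3GALT5-/- cells (KO, for knockout), both in basal medium, naive WT cells in 5iLAF medium and naive KO cells in 2iLAF medium. B3GALT5 is a galactosyltransferase that acts in the synthesis of glycosphingolipids. The labels do not say whether the KO cells were 1 clone, and a methylation library does not check the knockout. In the naive libraries genotype and medium differed together and cannot be told apart. With 1 library per group every difference below is one between libraries, without a replicate check. The libraries listed 2018895 to 2340330 CpG cytosines, with summed reads of 23916547 to 40697882, and KO naive was the deepest. Cytosines without any methylated read were not listed, so each level is that of cytosines with some methylation. Values given 4 at a time are in the order primed WT, primed KO, naive WT, naive KO.

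Centromeres are built on long arrays of satellite repeats that the hg19 reference leaves unsequenced, so reads cannot be placed there. The flanks of these arrays hold satellite blocks, segmental duplications and copies of genes from elsewhere in the genome, and short reads from such copies may be placed at the wrong copy. In differentiated and primed pluripotent cells this DNA is usually heavily methylated and packed as constitutive heterochromatin. Human naive pluripotent cells are known for low methylation across most of the genome.

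The gaps behaved as single landmarks on the 17 chromosomes. They spanned 3.06 to 21.1 Mb, while the next widest gap on any of these chromosomes was at most 1.16 Mb. The widest were on chromosome 1 (21.1 Mb), chromosome 9 (18.3 Mb) and chromosome 16 (11.3 Mb), which carry large heterochromatin blocks beside the centromere. Whether each gap holds the centromere was not checked against an annotation. On chromosome 21 the first 5 Mb reached across a gap of 3.22 Mb, with 1671 members before it and 69 after it. The number of members ran from 412 on chromosome 3 to 3100 on chromosome 17.

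Pericentromeric cytosines also differed from the others in density, strand and coverage, and the minimum of 10 reads that both had to pass bears on the coverage. A member had a median of 11 measured CpGs within 250 bp, against 7 for other cytosines. The median number of reads was 22, 24, 21 and 33 at members and 18, 19, 18 and 28 at others. Cytosines with over 100 reads on average made up 6.56% of members (2475 cytosines) and 1.995% of others. The minus strand, on which most listed cytosines lay in all 4 libraries, held 71.4% of members and 82.9% of others. Members thus had more measured CpGs nearby, were more deeply covered and were more evenly split between strands. Only CpGs listed in some library were counted, so the count can depend on coverage as well as on sequence. Of the cytosines with at least 10 reads in some library, 30.6% had them in all 4 near the gap and 22.4% elsewhere.

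In every library the pericentromeric cytosines were less methylated than the rest of the autosomes. Their mean level, with equal weight per cytosine, was 71.9% in WT primed and 72.9% in KO primed cells, and 48.1% in WT naive and 50.6% in KO naive cells. The other cytosines stood at 77.1%, 78.2%, 54.7% and 56.3%. The difference was -5.27, -5.31, -6.53 and -5.65 percentage points, on average -5.69 points ± 0.585 (SD, n = 4 libraries). It was negative in 4 of 4 libraries, and an exact two-sided sign-flip permutation test over libraries gave p = 0.13, the smallest that 4 libraries allow. The median levels, at 80.8%, 81.8%, 47.1% and 52.2% for members and 86.96%, 88.2%, 56.2% and 60% for others, were further apart than the means. Neighbouring cytosines, and both strands of a CpG, share reads and are not replicates, so the spread over cytosines (SD 23.8 to 27.1 points at members) entered no test.

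The deficit lay at the methylated end of the scale. Cytosines at 90% or above made up 35.1% of members in WT primed (Wilson 95% interval 34.7 to 35.6%, counting error only, here and below) against 45.8% of others. In KO primed the shares were 36.1% and 47.5%. In the naive libraries they dropped to 6.29% against 10.9% (WT) and 3.51% against 6.55% (KO). Members were instead more frequent between 20 and 80%, with 40.8% against 32.3% in WT primed and 74.5% against 68.9% in KO naive. They were also more frequent at 20% or below. There stood 17.2% of members and 13.7% of others in WT naive, and 13.4% and 11.2% in KO naive. In the primed libraries these shares were 7.12% and 5.55% (WT), and 6.43% and 5.16% (KO). Between 80 and 90% the primed shares were close, with 16.9% against 16.4% in WT and 17.5% against 16.8% in KO. The naive shares of that class were lower at members, with 7.30% against 11.1% in WT and 8.62% against 13.3% in KO.

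**Figure D1:**
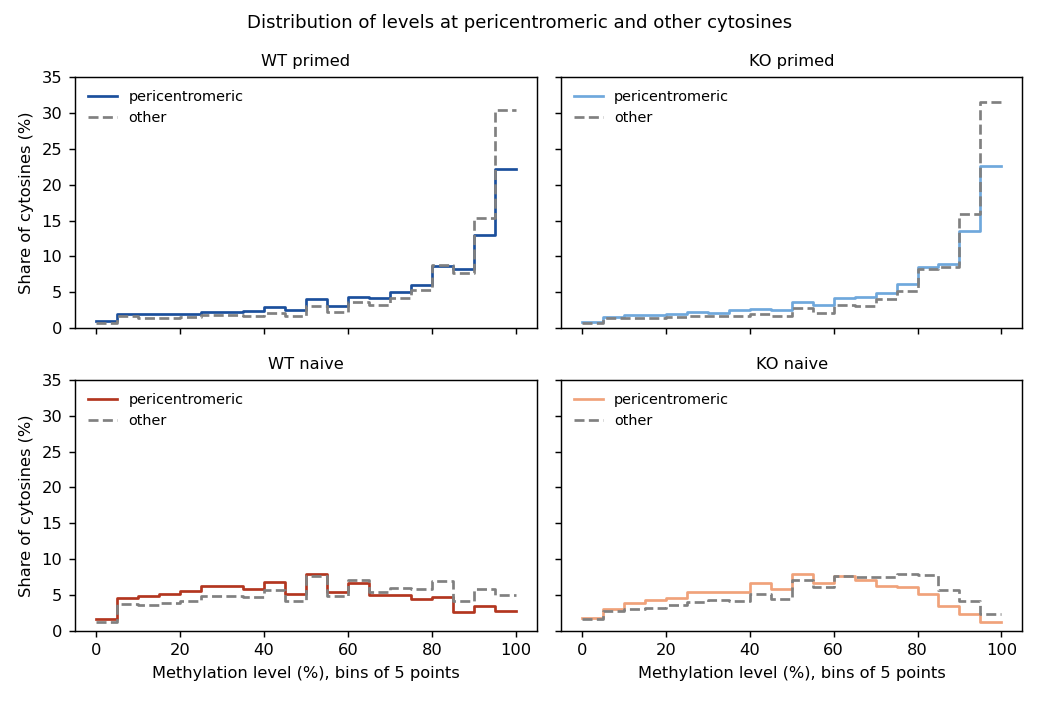
Share of cytosines (%) by methylation level (%) in bins of 5 points, 1 panel per library, for pericentromeric cytosines (solid line) and other autosomal cytosines (dashed line). In the primed libraries the peak at the methylated end is lower for the pericentromeric cytosines (35.1% at or above 90% in WT primed, against 45.8%).

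Read coverage moved with this difference. Mean levels fell from the least to the most covered class in all 4 libraries, at members from 78.96% (10 to 20 reads) to 59.3% (over 100 reads) in WT primed, and at others from 81.98% to 52.9%. A cytosine without a methylated read was not listed, so the lowest level that could be seen was lower with more reads. The part this had in the fall was not tested. In WT primed the member-minus-other difference was -3.01 points at 10 to 20 reads, -3.67 at 20 to 30, -0.895 at 30 to 50, 6.199 at 50 to 100 and 6.38 over 100. In WT naive it was -4.47, -4.71, -3.67, -0.664 and -0.109 points. Well covered pericentromeric cytosines were therefore more methylated than equally covered others in the primed libraries, and close to them in the naive ones. With others weighted to the members' coverage classes the mean difference was -2.25 points (-1.22, -1.25, -3.699 and -2.83 by library). Weighted by reads it was -2.55 points and turned positive in KO primed (0.264 points, exact two-sided sign-flip p over the 4 libraries = 0.375). At least 20 reads per cytosine gave -2.46 points. The part that coverage had in the difference was not tested further.

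**Figure D2:**
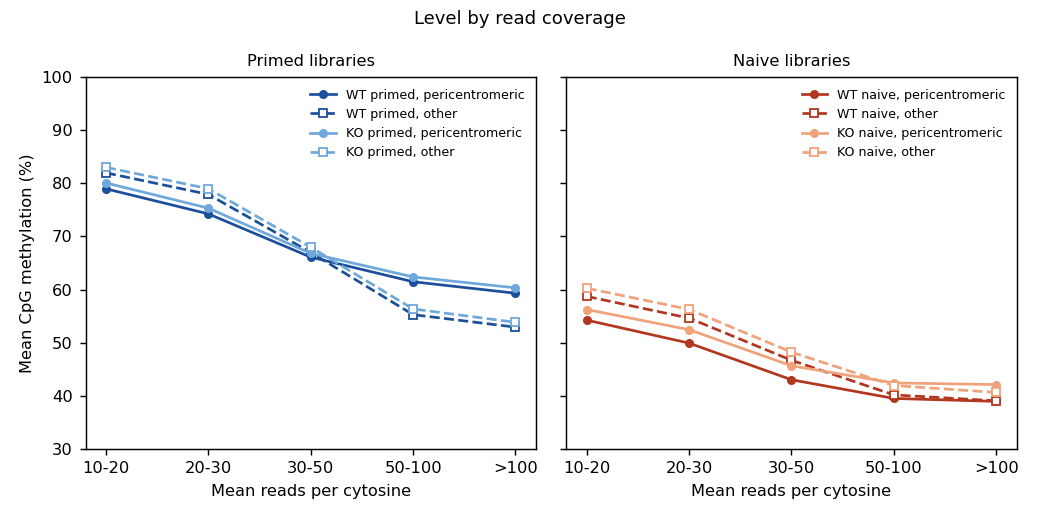
Mean CpG methylation (%) by mean reads per cytosine, for pericentromeric (filled points, solid lines) and other autosomal cytosines (open squares, dashed lines), primed libraries on the left and naive libraries on the right, 1 library per line. The lines cross in the primed libraries, where the difference goes from -3.01 points at 10 to 20 reads to 6.38 points over 100 reads in WT primed.

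CpG density set the members apart in another way. In the densest class, with at least 40 measured CpGs within 250 bp, the 1519 members stood at 56.7%, 58.7%, 39.7% and 42.9%. The 6831 other cytosines of that density stood at 73.8%, 76.4%, 55.2% and 58.3%. Pericentromeric cytosines of this class were thus -17.2 and -17.7 points from the others in the primed libraries and -15.5 and -15.4 points in the naive ones. At 10 to 20 CpGs the difference was smallest in the primed libraries, at -1.88 (WT) and -2.39 points (KO). It was negative in all 5 classes of density in all 4 libraries. With others weighted to the members' density the mean difference was -5.44 points.

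Distance from the gap was examined on the 17 chromosomes with a gap on both sides. The lowest levels lay in the nearest Mb. Cytosines within 0.1 Mb of an edge (1111 cytosines) stood at 63.1% in WT primed and 64.8% in KO primed cells, and 42.9% in WT naive and 46.1% in KO naive cells. Those at 0.1 to 0.5 Mb stood at 68.2%, 70.5%, 43.3% and 48.4%, and those at 0.5 to 1 Mb at 65.1%, 66.97%, 43.9% and 45.5%. From 1 Mb on the levels were higher and nearly flat: at 1 to 2 Mb they were 73.96%, 74.2%, 50.5% and 53.4%, and at 4 to 5 Mb 72.04%, 73.6%, 50.2% and 51.1%. Beyond 30 Mb they were 78.0%, 78.99%, 55.7% and 57.3%. With each chromosome given equal weight, the first Mb stood at 67.4%, 68.8%, 44.98% and 47.4%, and the second at 74.2%, 74.7%, 50.6% and 54.4%. At 5 to 6 Mb, just past the window, the levels were 73.7%, 74.9%, 51.4% and 52.6%. At 6 to 7 Mb, over 16 chromosomes, they were 76.6%, 77.5%, 53.4% and 54.7%. The first Mb was below the rest of the window on 15 of 17 chromosomes in WT primed, 15 in KO primed, 14 in WT naive and 15 in KO naive. Chromosome 6 had the widest primed step (-25.7 and -25.1 points), and chromosome 11 ran the other way in all 4 libraries (4.16, 5.30, 8.22 and 7.404 points). Coverage also moved with distance: the median was 30 reads within 0.1 Mb and 19 at 4 to 5 Mb in WT primed, and its part in the pattern was not tested.

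**Figure D3:**
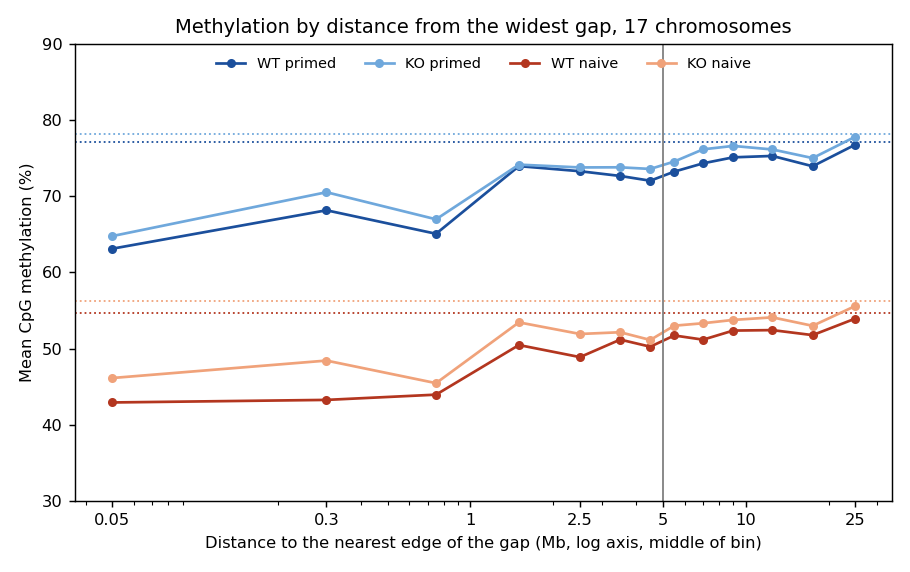
Mean CpG methylation (%) against distance to the nearest gap edge (Mb, log axis) on the 17 chromosomes with a gap, 1 line per library; dotted lines give each library's mean over all other autosomal cytosines, and the vertical line marks 5 Mb. All 4 lines are lowest within 1 Mb of the gap (WT primed 65.1% at 0.5 to 1 Mb, 73.96% at 1 to 2 Mb).

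The limit of 5 Mb marked no step. The last 0.5 Mb inside it stood at 71.1%, 72.8%, 49.9% and 50.5% and the first 0.5 Mb outside at 70.6%, 71.6%, 50.9% and 51.4%, over 2331 and 2822 cytosines. Pooled over chromosomes, the sides of the gap differed by a few points. The levels were 72.7%, 73.5%, 49.1% and 51.9% below it, towards the start of the chromosome, and 69.4%, 70.8%, 47.4% and 49.4% above it. Not every chromosome had this order. In WT primed, chromosome 9 stood at 61.7% below and 48.2% above the gap, and chromosome 16 at 73.7% below and 79.6% above. The first 5 Mb of the 5 chromosomes without a gap rule stood at 74.3%, 74.9%, 47.3% and 49.8%, with primed levels above those of both sides of the gaps and naive levels near those of the upper side. Among the 34 flanks of the gaps, the upper flank of chromosome 9 was the lowest in all 4 libraries (48.2%, 49.5%, 34.3% and 35.4%, 1692 cytosines). The lower flank of chromosome 3 was the highest in both primed libraries (84.6% and 84.4%, 129 cytosines), and the lower flank of chromosome 7 in both naive ones (56.4% and 59.1%).

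Chromosomes were then compared with their own other cytosines. Members were lower on 19 of 22 chromosomes in WT primed, on 20 in KO primed and on all 22 in both naive libraries. Chromosome 9 stood furthest below, at -22.1, -20.6, -17.3 and -16.97 points. Chromosomes 20 (-11.1 and -10.01) and 21 (-16.2 and -13.1) were next in the primed and in the naive libraries, respectively. At the other end, chromosome 3 was above its others in the primed libraries (3.39 and 3.64 points) and below in the naive ones (-3.92 and -0.818). The chromosome closest to its others was chromosome 8 in WT naive (-1.01 points) and chromosome 11 in KO naive (-0.494 points). Chromosomes 9 and 21 also had the largest shares of members over 100 reads, at 17.8% and 19.2%, followed by chromosome 7 at 14.02%, and the part this had in their low levels was not tested. Without chromosome 9 the autosomal difference was -4.54 points, against -5.69 with it.

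A single 500 kb window held part of the chromosome 9 deficit. From 66000001 to 66500000, 443 of its 2852 members stood at 27.8%, 28.7%, 27.3% and 24.9%, a range of a few points over both states. This window was picked after its values were seen. Without it the members of chromosome 9 were still -17.4, -15.6, -15.6 and -14.4 points from the chromosome's others. With members of at most 100 reads only, the differences were -22.6, -20.8, -17.5 and -17.3 points. The low level of chromosome 9 was thus present outside that window and outside the deepest cytosines.

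**Figure D4:**
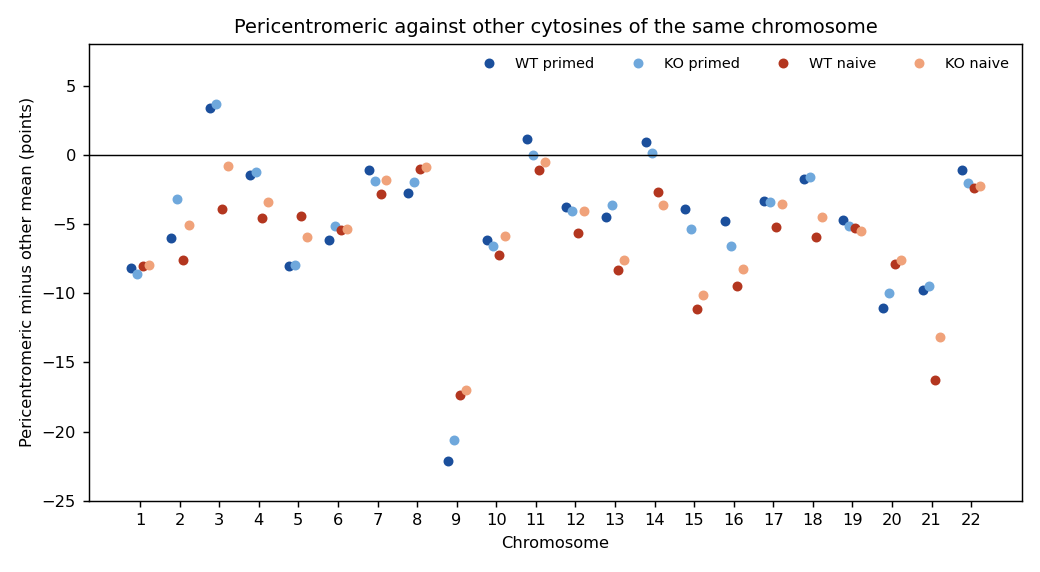
Mean level of pericentromeric minus other cytosines of the same chromosome (percentage points) for each autosome, 1 point per library. Chromosome 9 lies lowest in all 4 libraries (-22.1 points in WT primed), and chromosome 3 highest in the primed libraries (3.39 points in WT).

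The first comparison between states asked how WT cells in 5iLAF differed from WT cells in basal medium near the gaps. The members went from 71.9% to 48.1%, and so fell by 23.7 points. Others fell by 22.5 points. In KO cells, with 2iLAF as the naive medium, members fell by 22.3 points, from 72.9% to 50.6%, and others by 21.9. Averaged over the genotypes it was -22.98 points ± 1.04 at members (SD, n = 2 pairs, negative in both), with p = 0.5 in an exact two-sided sign-flip permutation test, the smallest that 2 pairs can give. Of the members, 83.1% in WT and 87.4% in KO had a lower level in the naive library, against 80.4% and 85.9% of others.

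Whether the loss was larger near the gap than elsewhere depended on the setting. The members' naive-minus-primed difference minus that of others was -1.26 points in WT and -0.337 in KO, on average -0.7995 ± 0.654 (SD, n = 2 pairs; exact two-sided sign-flip p = 0.5, the smallest possible). It was -5.13 points weighted by reads, -2.79 with at least 20 reads and -2.03 with others weighted to the members' coverage. Without chromosomes 13, 14, 15, 21 and 22 it was -0.0729 points, with -0.468 in WT and 0.322 in KO. Pooled over these 5 chromosomes members fell by 27.1 points in WT and 25.1 in KO. Chromosome 22 was an exception among them, with -23.3 points in WT and -22.03 in KO.

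A lower primed level leaves less room to fall, so members and others were also compared within classes of the primed level in the other genotype, a library that does not enter the difference. In WT cells the members' change was more negative than that of others in each of the 6 classes, with -2.59 to -1.49 points for members minus others. At 90 to 100% the 13617 members fell by 27.8 points and others by 25.3. In KO cells the order was mixed: members minus others was -1.48 points at 90 to 100% and 0.695 at 40 to 60%, the only class above 0. Members at 0 to 20% differed by -1.403 points in WT and -6.15 in KO. Others of that class differed by 0.948 points in WT, a rise, and by -4.34 in KO. These values describe cytosines of the same libraries and carry no test.

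At the cytosines measured, 19.5% of those listed near the gaps, the loss was seen on every chromosome, in unequal size. Among 500 kb windows, picked after their values were seen, the WT loss was least on chromosome 9, 66000001 to 66500000. It was -0.462 points there, and -3.74 in KO. The KO loss was least on chromosome 20, 26000001 to 26500000, at -3.48 points, with -3.28 in WT. By chromosome and flank, the members' mean was lower in the naive library on 22 of 22 chromosomes and in 34 of 34 flanks in both genotypes. Chromosomes 3 (-30.98 points) and 21 (-28.97) fell most in WT cells, and chromosomes 14 (-27.0) and 13 (-26.9) in KO cells. Chromosomes 9 and 20 fell least in both, at -16.7 and -18.8 points in WT and -16.8 and -18.97 in KO. By distance over all 22 chromosomes, the WT difference was -21.6 points within 0.1 Mb, -26.9 at 0.1 to 0.5 Mb and -22.2 at 4 to 5 Mb. The KO difference was -19.3, -23.4 and -22.4 points at the same distances. The bin at 0.1 to 0.5 Mb had the largest fall of the first 5 Mb in both genotypes. These bins include the 5 chromosomes measured from the first listed position. On the 17 chromosomes with a gap this held in WT only, at -24.9 points. There KO fell by 22.1 points at 0.1 to 0.5 Mb and by 22.5 at 4 to 5 Mb.

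Single cytosines were tested by Fisher's exact test on methylated and unmethylated reads, two-sided, with Benjamini-Hochberg adjustment over all 411226 autosomal and X cytosines, and a call needed both an adjusted p below 0.05 and a change of 25 points or more. Such a test compares 2 libraries and takes reads as independent molecules. In WT naive against WT primed 12067 members were called lower, or 31.99% (Wilson 95% interval 31.5 to 32.5%), where 26.7% of all cytosines tested and 26.3% of the others were. Called higher were 278 members, or 0.737%, where 0.828% of all cytosines were. In KO naive against KO primed 11691 members (30.99%, Wilson 95% interval 30.5 to 31.5%) were called lower, against 27.4% of all cytosines and 27.1% of the others. Called higher were 120 members (0.318%), against 0.392% of all. With 10 reads drawn per cytosine in every library, 3.68% of members and 3.79% of others were called lower in WT, and 2.13% and 2.39% in KO. With read numbers divided by the disagreement between the strands of a CpG, 0.795% of members and 0.209% of others were called lower in WT, and 0.798% and 0.227% in KO. Both settings also lower the power of the test, and the part that read depth had in the excess of lower calls was not tested.

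The lower calls of both genotypes fell on the same members in 6080 cases, which is 50.4% of the WT list and 52.01% of the KO list. At other cytosines these shares were 47.97% and 46.5%. In 1 kb tiles, 1835 of 19748 autosomal tiles with at least 5 cytosines were pericentromeric. Shares of all tiles, here and below, are over 20581 tiles and include the X, while others are autosomal. A tile was called where its mean differed by at least 25 points and at least 80% of its cytosines moved that way, a rule of size without a p. In WT 815 pericentromeric tiles were lower (44.4%, Wilson 95% interval 42.2 to 46.7%), where 37.4% of all tiles and 36.95% of the others were, and 5 were higher (0.272%, all tiles 0.51%). In KO 697 were lower (37.98%, all tiles 34.2%, others 34.03%) and 2 were higher (0.109%, all tiles 0.214%). Both genotypes shared 497 lower tiles, or 60.98% of the WT and 71.3% of the KO list, against 61.96% and 67.3% at other tiles. Losses of this size were thus frequent and gains were rare, near the gaps as at other tiles. Of the other tiles 0.519% (WT) and 0.223% (KO) were higher.

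The tiles named from here on had the 4 largest decreases and the 4 largest increases of each comparison, and each level is given with the SD over cytosines of the tile. Since the ranking used these same libraries, the values are extremes of a distribution. Positions are in hg19, and genes or exons were not assigned to them. The largest loss in WT cells lay on chromosome 10, 45720001 to 45721000, 3194 kb above the gap, at 98.7% ± 3.34, 95.2% ± 5.93, 20.8% ± 15.3 and 48.9% ± 8.14 over 14 cytosines. This tile kept more methylation in KO naive than in WT naive. Cytosine by cytosine, its levels ran from 88.9 to 100% in WT primed and from 7.69 to 53.8% in WT naive. The ranges of these 2 libraries did not overlap, in a tile picked for that difference. Each cytosine rested on 11 to 14 reads in WT naive, all on the minus strand and close together.

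Among the named losses, 2 tiles ranked in both genotypes. One, on chromosome 19, 23386001 to 23387000, 1190 kb below the gap, stood at 87.3% ± 9.895, 87.9% ± 7.95, 13.1% ± 7.91 and 17.3% ± 4.96 over 14 cytosines. The other, on chromosome 15, 21996001 to 21997000, stood at 88.9% ± 8.76, 83.5% ± 14.7, 15.8% ± 8.46 and 17.5% ± 9.44 over 16 cytosines, at a mean of 55.2 reads. Both went from a highly methylated primed state to a level under 20% in both naive libraries. The fourth loss in WT cells was the tile of chromosome 10 from 38691001, which also had the largest increase in KO naive against WT naive. The largest loss in KO cells lay on chromosome 13, 21573001 to 21574000, at 92.7% ± 8.81, 93.5% ± 7.05, 28.6% ± 9.66 and 20.2% ± 11.2 over 12 cytosines. Its cytosines ran from 82.9 to 100% in KO primed and from 9.38 to 41.4% in KO naive. A further tile of that chromosome, 23458001 to 23459000, was the last of the 4 named losses in KO, at 82.5% ± 18.5, 89.5% ± 8.02, 17.9% ± 12.7 and 25.6% ± 11.8 over 23 cytosines.

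Gains ran against the general loss. The largest lay on chromosome 22, 19751001 to 19752000, at 8.004% ± 4.63, 8.86% ± 4.39, 71.3% ± 21.99 and 67.3% ± 13.6 over 8 cytosines, and was first in both genotypes. It was nearly unmethylated in both primed libraries and largely methylated in both naive ones. The second, on chromosome 1, 118251001 to 118252000, stood at 33.9% ± 26.6, 40% ± 18.3, 86.2% ± 10.3 and 87.6% ± 8.69 over 5 cytosines, and these were the 2 pericentromeric tiles called higher in KO cells. The other named gains of WT cells differed between the genotypes. On chromosome 20, 33999001 to 34000000, the levels were 14.7% ± 13.1, 29.7% ± 9.71, 45.8% ± 13.8 and 21.6% ± 7.02 over 24 cytosines. On chromosome 2, 91874001 to 91875000, they were 34.9% ± 19.2, 67.1% ± 24.8, 64.3% ± 25.8 and 63.4% ± 21.03 over 7 cytosines. In both of these the KO primed library was already above the WT primed one, and KO cells showed no gain. Both WT gains fell short of 25 points under other settings. The chromosome 20 gain of 31.1 points was 21.5 with at least 20 reads. The chromosome 2 gain of 29.4 points was 22.7 with at least 5 reads and 23.5 with strands merged.

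Few tiles kept a primed level. Of the 687 pericentromeric tiles at 80% or above in both primed libraries, 31 (4.51%, Wilson 95% interval 3.197 to 6.33%) were still there in both naive libraries. Of the 9276 other tiles of that class, 864 (9.31%, 8.74 to 9.92%) were. At the opposite end, 10 of these pericentromeric tiles (1.46%) and 2.08% of the others had dropped to 30% or below in both naive libraries. Retention was less frequent near the gap in these libraries, while the shares at 30% or below were within counting error of each other (interval 0.793 to 2.66% near the gap). Tiles are not replicates, and these sets were not matched for coverage or for primed level within the class.

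The comparison of genotypes in the primed state asked how KO cells differed from WT cells in the same basal medium. Over all members KO was higher by 0.999 points, close to the 1.04 points of other cytosines. Fisher's exact test called 170 members lower (0.451%, Wilson 95% interval 0.388 to 0.524%), where 0.323% of all cytosines and 0.286% of the others were. It called 307 members higher (0.814%, Wilson 95% interval 0.728 to 0.9097%), where 0.603% of all cytosines and 0.563% of the others were. With 10 reads drawn, or with scaled reads, this test called no member in either direction, with 413 lower and 608 higher at an unadjusted p under 0.05 for 10 reads. Chromosome 2 held 72 of the higher calls (23.5%), and 31 of all 307 lay in 2 adjacent tiles there. By the rule of size 10 pericentromeric tiles were lower (0.545%, all tiles 0.69%, others 0.586%) and 22 higher (1.199%, all tiles 1.31%, others 1.18%). In both directions the share was close to that of the others.

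The 4 named gains of the KO primed library were tiles that both naive libraries and WT primed held at lower levels. On chromosome 2, 95692001 to 95693000, 294 kb above the gap, the levels were 10.2% ± 8.13, 90.9% ± 12.7, 13.5% ± 10.3 and 35.4% ± 15.03 over 24 cytosines. Fisher's exact test called 23 of the 24 cytosines of this tile higher. Its cytosines ran from 2.86 to 28.1% in WT primed and from 41.2 to 100% in KO primed, without overlap. The tile was picked as the largest such difference, so these calls and ranges carry no separate support. Its cytosines all lay on the minus strand, close together, and are not replicates. The tile before this one stood at 9.13%, 96.5%, 28.0% and 65.6% over 8 cytosines. The second, on chromosome 20, 30135001 to 30136000, stood at 10.7% ± 4.39, 74.97% ± 9.32, 30.4% ± 9.301 and 33.8% ± 7.47 over 18 cytosines. On chromosome 2, 89065001 to 89066000, the levels were 37.8% ± 25.7, 82.3% ± 13.5, 32.2% ± 12.9 and 37.98% ± 10.3 over 21 cytosines. In all 3 the KO primed library stood apart, while WT primed, WT naive and KO naive were each under 40%. The last, on chromosome 22, 19136001 to 19137000, was at 37.1% ± 21.5, 71.4% ± 24.99, 58.1% ± 22.2 and 23.7% ± 13.3 over 25 cytosines, with an opposite order of the genotypes in the naive state.

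The named losses of KO primed cells had fewer cytosines. On chromosome 22, 17198001 to 17199000, the levels were 98.3% ± 4.08, 54.6% ± 4.51, 47.8% ± 11.1 and 55.5% ± 10.2 over 6 cytosines. That difference of -43.7 points was -17.6 with strands merged and -27.5 with at least 5 reads, which bring in other cytosines of the tile. Those on chromosome 1, 146544001 to 146545000, were 57.03% ± 10.4, 15.2% ± 9.42, 12.4% ± 12.4 and 14.8% ± 2.23, and those on chromosome 10, 44069001 to 44070000, were 52.5% ± 18.7, 18.1% ± 9.39, 21.9% ± 11.8 and 7.801% ± 4.24, over 6 cytosines each. In both of these WT primed stood above the other 3 libraries. The last, on chromosome 19, 22785001 to 22786000, was at 83.02% ± 10.5, 52.5% ± 18.3, 30.8% ± 15.6 and 44.4% ± 11.04 over 5 cytosines.

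In the naive state the KO library in 2iLAF was higher than the WT library in 5iLAF by 2.46 points at members and by 1.58 at others. Over both states the KO-minus-WT difference of members was 1.73 points ± 1.04 (SD, n = 2 pairs, higher in 2 of 2; exact two-sided sign-flip p = 0.5, the smallest possible). The naive difference was largest within 0.1 to 0.5 Mb of the gap. By distance over 22 chromosomes it was 3.404 points within 0.1 Mb, 5.15 at 0.1 to 0.5 Mb, 1.99 at 0.5 to 1 Mb, 3.19 at 1 to 2 Mb, 2.66 at 2 to 3 Mb, 0.313 at 3 to 4 Mb and 1.05 at 4 to 5 Mb. Without chromosomes 2 and 21 the bin at 0.1 to 0.5 Mb stood at 4.49 points. The primed difference at the same distances was 1.08, 1.72, 1.76, 0.374, 0.439, 1.19 and 1.29 points. Its largest values, unlike those of the naive difference, were below 2 points.

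The members of chromosome 21 had the largest naive difference, at 5.67 points, followed by chromosome 3 at 5.301. Chromosome 5 was the only one below 0, at -0.132 points, and chromosome 14 was next at 0.841. In the primed state chromosomes 2 (3.74) and 9 (2.27) were highest, and chromosomes 16 (-0.756) and 11 (-0.104) lowest. The order of chromosomes thus differed between the states. Fisher's exact test called 201 members lower in KO naive (0.533%, where 0.527% of all cytosines were) and 448 higher (1.19%, Wilson 95% interval 1.08 to 1.302%, where 0.911% of all and 0.898% of others were). With 10 reads drawn it called none in either direction, with 478 lower and 833 higher at an unadjusted p under 0.05. By the rule of size 19 tiles were lower (1.04%, all tiles 1.29%, others 1.25%) and 39 higher (2.13%, all tiles 2.56%, others 2.6%).

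Adjacent tiles on chromosome 10 led the tiles that were higher in KO naive cells. At 38691001 to 38692000, 384 kb below the gap, the levels were 85.6% ± 11.9, 87.8% ± 15.6, 12.9% ± 5.02 and 72.4% ± 9.896 over 14 cytosines. Its cytosines, on both strands, ran from 5.88 to 18.2% in WT naive and from 50 to 84.6% in KO naive, and did not overlap. This tile was picked as the largest such difference, so these ranges carry no separate support. The next tile, 38692001 to 38693000, stood at 70.9% ± 9.48, 89.5% ± 14.9, 28.6% ± 15.99 and 65.03% ± 10.7 over 16 cytosines. This stretch was thus methylated in both primed libraries and kept most of that level in KO naive but not in WT naive. On chromosome 6, 58287001 to 58288000, the levels were 55.4% ± 15.7, 75.7% ± 17.7, 9.32% ± 4.703 and 40.2% ± 12.5 over 12 cytosines, but the naive difference of 30.9 points was 16.6 with strands merged and 16.7 with at least 5 reads. On chromosome 13, 20716001 to 20717000, the levels were 98.8% ± 3.098, 98.6% ± 3.41, 53.4% ± 16.2 and 82.9% ± 5.06 over 13 cytosines. Its naive difference of 29.5 points was 22.6 with at least 5 reads.

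Tiles lower in KO naive cells were small apart from one. On chromosome 18, 13497001 to 13498000, the levels were 94.05% ± 6.23, 89.2% ± 15.3, 93.7% ± 4.18 and 54.5% ± 13.1 over 5 cytosines. WT cells held this tile above 90% in both states. Its naive difference of -39.3 points was -27.8 with at least 5 reads and -29.8 with strands merged. On chromosome 18, 21632001 to 21633000, they were 90.9% ± 6.498, 93% ± 7.75, 76.8% ± 6.97 and 38.1% ± 11.9 over 6 cytosines. The third lay on chromosome 20, 34025001 to 34026000, at 88.8% ± 23.98, 98.96% ± 2.55, 68.3% ± 10.9 and 30.1% ± 9.48 over 6 cytosines. The fourth was the tile of chromosome 22 from 19136001 already named among the gains of KO primed, with 25 cytosines. In all 4 the naive-minus-primed difference was more negative in KO than in WT cells. The tiles were picked for a low KO naive level, so this order follows largely from the choice.

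**Figure D5:**
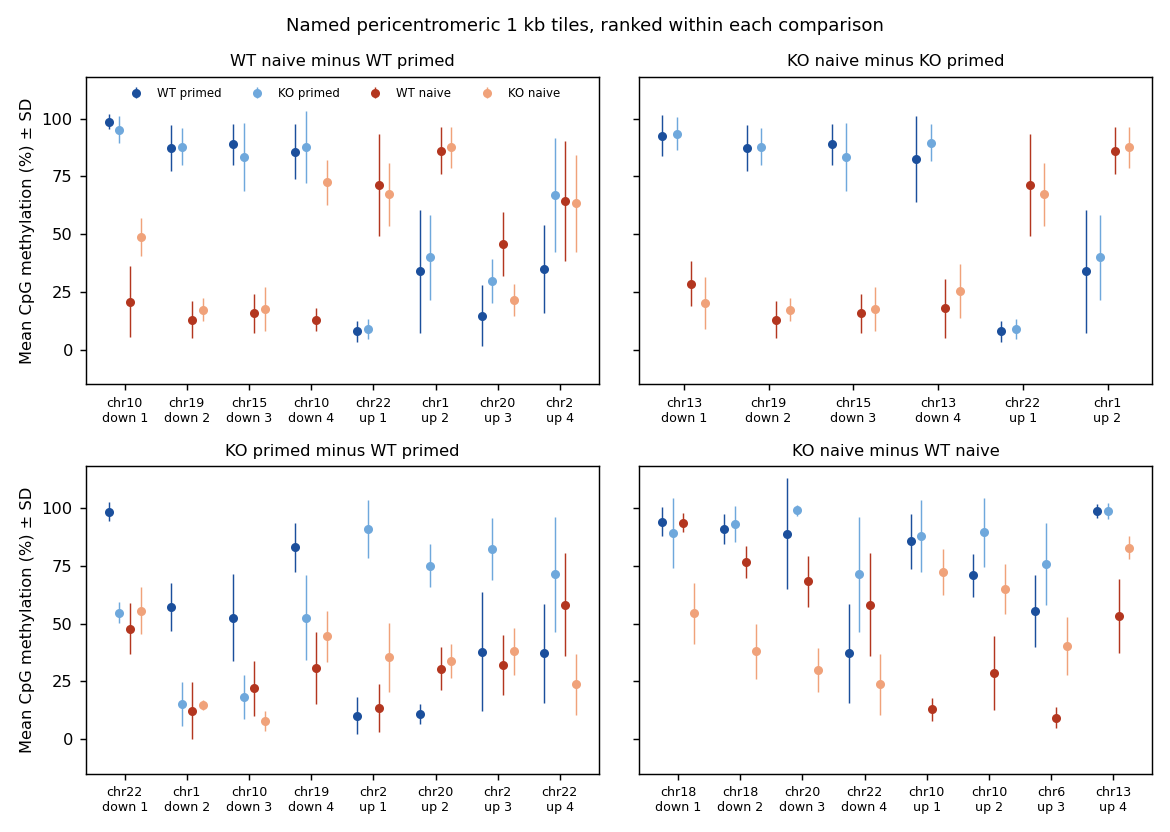
Mean CpG methylation (%) ± SD over the cytosines of each named 1 kb pericentromeric tile in the 4 libraries, 1 panel per comparison; tiles are labelled by chromosome and by rank among the decreases (down) or increases (up) of that comparison. In the lower left panel the leading chromosome 2 tile stands at 90.9% in KO primed and at 10.2% in WT primed.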

How the data were processed

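Bisulfite libraries were made from captured genomic DNA of H9 cells, with a conversion of 99% in each library per the labels' protocols. Per the submitters' processing notes, reads were placed on hg19 (GRCh37). No source used here names the aligner, the methylation caller or the handling of duplicates. For each library the authors deposited raw counts of reads and of methylated reads by cytosine and strand. The deposited fraction, a methylation level from 0 to 1, equalled the ratio of these counts on each row. No row had 0 methylated reads. Levels were computed from the counts and are given in percent.

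Cytosines with at least 10 reads in all 4 libraries were kept, chromosome Y was left out, and strands were kept apart. Median coverage at members was 21 to 33 reads. Each cytosine had equal weight in a mean level, and means were compared over libraries by exact two-sided sign-flip permutation tests. Cytosines were compared by Fisher's exact test with Benjamini-Hochberg adjustment, and 1 kb tiles (at least 5 cytosines) by size alone. Named tiles were the 4 largest decreases and increases per comparison among called tiles with at least 10 cytosines, or at least 5 where fewer than 4 had 10. The 2 highest and 2 lowest chromosomes and flanks were to be named by level or difference; the text gives a selection. The members and this rule were chosen with earlier results of these data known. Scripts used Python 3.11.15, pandas 2.3.3, scipy 1.17.1 and numba 0.67.0 and were tested on simulated data. Wilson 95% intervals cover counting error only.

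Alternatives were coverage minimums of 5 and 20 reads, a limit of 100 reads, windows of 2 and 10 Mb, equal weight per chromosome, weighting by reads, merged strands, leaving out chromosomes 13, 14, 15, 21 and 22, calls at 50 points, a draw of 10 reads per cytosine and at least 10 cytosines per tile. Chosen after seeing the data were filling in unlisted cytosines at 0, scaled reads, leaving out chromosome 9 (and its lowest window) or chromosomes 2 and 21, and weighting others to the members' coverage or CpG density. No gene list and no sequence was used, since an hg19 genome or annotation was not used here.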

Additional observations from a re-analysis of the deposited data

Results flagged for a closer look

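In 6 of the 24 named tiles the naive-minus-primed difference had opposite signs in WT and KO cells. Each genotype is 1 pair of libraries, the naive media differed, and the difference between genotypes was not tested. On chromosome 20, 33999001 to 34000000, the difference was 31.1 points for WT and -8.16 for KO, so -39.3 points for KO minus WT. The tile on chromosome 2, 91874001 to 91875000, had 29.4 points for WT and -3.66 for KO, a KO-minus-WT value of -33.1 points. On chromosome 22, 17198001 to 17199000, the difference was -50.6 points for WT and 0.901 for KO, so 51.5 points for KO minus WT. The tile on chromosome 2, 95692001 to 95693000, had 3.37 points for WT and -55.5 for KO, a KO-minus-WT value of -58.9 points. On chromosome 20, 30135001 to 30136000, the difference was 19.6 points for WT and -41.2 for KO, so -60.8 points for KO minus WT. The tile on chromosome 22, 19136001 to 19137000, had 21.1 points for WT and -47.7 for KO, a KO-minus-WT value of -68.8 points. In 5 of the 6 the KO value was the more negative one. The tiles were ranked on these same libraries.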

How the results depend on the processing

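Over 14 alternatives the 4 results over libraries kept their sign: the naive-minus-primed level of members lay between -23.5 and -20.6 points, members minus others between -6.696 and -2.25, the difference of both changes between -5.13 and -0.0729, and KO minus WT between 1.45 and 2.26. Of single libraries, KO primed turned to 0.264 points for members minus others when weighted by reads; the cause was not tested. Shares of members called by Fisher's exact test moved by over 1.5 times as follows. With at least 5 reads they were 20.9% lower and 0.459% higher in WT naive, 0.192% higher in KO naive, 0.164% lower and 0.365% higher in KO against WT primed, and 0.235% lower and 0.571% higher in KO against WT naive. With at least 20 reads they were 0.984% and 1.57% in KO against WT primed, and 2.28% higher in KO against WT naive. A difference of 50 points left, lower and higher, 15.1% and 0.255% in WT naive, 9.45% and 0.06097% in KO naive, 0.167% and 0.411% in KO against WT primed, and 0.268% and 0.4904% in KO against WT naive. With 10 reads drawn the shares were 3.68% and 0.0239% in WT naive, 2.13% and 0.0106% in KO naive, and 0 in both genotype comparisons. Scaled reads gave 0.795% and 0 in WT naive (26 higher at an unadjusted p under 0.05), 0.798% and 0 in KO naive (8), and 0 in the genotype comparisons, where 20 lower and 80 higher (primed) and 67 and 194 (naive) had an unadjusted p under 0.05. Stricter settings test fewer reads or cytosines by construction. Of tiles, with at least 20 reads, 0 were higher in WT naive and 0 in KO naive, 0.287% lower and 0.717% higher in KO against WT primed, and 0 lower and 0.4304% higher in KO against WT naive, by the rule of size, which gives no p. With at least 10 cytosines per tile the shares were 0.129% higher in WT naive, 0 in KO naive, 0.258% and 0.775% in KO against WT primed, and 0.258% and 1.16% in KO against WT naive. Tiles higher in WT naive were 0.112% within 2 Mb and 0.679% with filling in, and those higher in KO naive 0 within 2 Mb, 0.0692% without chromosomes 13, 14, 15, 21 and 22 and 0.194% with filling in. No paired analysis was possible because each group held 1 library and the labels carry no replicate numbers to block on; the pairs compared above are libraries of 1 genotype or 1 state. Depth limits the calls: a member with 10 reads per library can pass only at a large difference, and the strands of a CpG disagreed by more than independent reads would.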

Other observations

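Windows of 500 kb gave a finer view of the flanks; those named here were picked after their values were seen. All 333 windows with at least 20 members were lower in the naive than in the primed library in both genotypes, by 0.462 to 61.5 points in WT and 3.48 to 49.7 in KO. The largest fall in both lay on chromosome 1, 147500001 to 148000000, at 92.8%, 92.02%, 31.3% and 42.3% over 43 cytosines. The lowest primed level lay on chromosome 20, 26000001 to 26500000, at 21.4%, 23.6%, 18.2% and 20.2% over 164 cytosines, of which 29.3% had over 100 reads. On chromosome 2, 89000001 to 89500000, KO primed was 17.8 points above WT primed, the highest primed value, over 49 cytosines. In the naive state the extremes were -13.7 points on chromosome 22, 19000001 to 19500000 (111 cytosines), and 17.8 points on chromosome 3, 94500001 to 95000000 (22 cytosines).

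Some tiles stayed highly methylated in all 4 libraries, and the following were also picked after their values were seen. By the level of the lowest library, and with 10 or more cytosines required, the first, on chromosome 5, 42951001 to 42952000, stood at 99.1%, 95.1%, 98.4% and 88.9% over 11 cytosines. The next, on chromosome 17, 18580001 to 18581000, stood at 93.97%, 94.9%, 87.5% and 86.7% over 14 cytosines.

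At the 5500 pericentromeric CpGs measured on both strands, the strands differed by a mean of 15.1, 14.7, 16.8 and 12.2 points in the 4 libraries, in the order used throughout. At other CpGs the differences were 15.3, 14.5, 17.9 and 13.6 points.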
